A study of Homo sapiens with 10 samples.

Results

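The 30 genes described here encode enzymes and regulators of cholesterol and fatty acid synthesis. They were chosen by function, as the rows of the deposited table that carry their symbols: 7 genes of the mevalonate arm, 11 of the squalene and sterol arm, 5 of the SREBP system with a sterol carrier, and 7 of fatty acid synthesis. They are 30 of 26040 genes in the table, and all 30 passed the filter on low values that 14955 genes passed.

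Cholesterol is made from acetyl-CoA. The mevalonate arm turns acetyl-CoA into farnesyl diphosphate, and the squalene and sterol arm joins farnesyl units into squalene, closes the rings to lanosterol, and then removes methyl groups and moves double bonds until cholesterol is reached. The SREBP transcription factors switch on genes of these arms when membranes are short of sterol, with SREBF2 mainly tied to sterol genes and SREBF1 mainly to fatty acid genes, and p53 is known as a regulator of lipid synthesis in several cell types.

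The values come from sequencing of poly(A) RNA, prepared with a stranded kit, from U2OS, a human osteosarcoma cell line with wild-type p53. The series asks how loss of ARVCF, a catenin that binds cadherins at cell junctions, alters transcription driven by p53. All cells carried a lentiviral shRNA and had been selected in puromycin at 1 µg/ml. There were 3 shARVCF libraries under 10 µM nutlin-3a for 24 h, 3 untreated shARVCF libraries, 3 control libraries under 10 µM nutlin-3a for 24 h, and 1 untreated control library, 10 in all. Nutlin-3a keeps MDM2 from p53 and so stabilises p53. Each shARVCF replicate is a line with its own shRNA, and the label text describes the treated cells as clones, so line and shRNA cannot be told apart. The control libraries all come from cells with a negative control shRNA. Control nutlin-3a replicates 2 and 3 carry later library numbers than the other 8 libraries. Where library series are named below, these replicates were taken as the second and the other 8 libraries as the first. No label names a batch, so that split is assumed. Nothing in the labels says that replicates came from separate cultures, so the p-values speak only of how far these libraries scatter. Among the shARVCF libraries that scatter includes differences between lines, and in all groups it may be technical. No spread between control lines could be measured, so p-values of shARVCF lines against the control line do not cover it.

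Libraries held between 17821751 and 19903778 scaled fragments, where a gene's scaled fragments are its fragments as estimated by the authors and divided by a library factor. ARVCF stood at 1284, 1188 and 1232 scaled fragments in the nutlin-3a shARVCF libraries, against 2928, 2571 and 2376 in the nutlin-3a control libraries, and at 291.8, 343.2 and 338.0 in the untreated shARVCF libraries, against 617.7 in the untreated control library. Of 7 osteoblast and mesenchymal markers VIM, COL1A1 and SPARC were abundant, while SP7 (0 to 1.9) and COL1A2 (1.83 to 15.5) were near 0 in every library. RUNX2 was at 778.1 to 1105 in nutlin-3a shARVCF libraries and 1115 to 1444 in untreated ones, and at 328.4 to 361.3 in nutlin-3a control libraries, against 1061 in the untreated control library. ALPL was at 438.5 to 792.3 in nutlin-3a shARVCF libraries and 122.6 to 217.5 in untreated ones, and at 1265 to 1502 in nutlin-3a control libraries, against 176.4 in the untreated control library. None of 4 adipocyte or 4 hepatocyte markers passed the filter, and ADIPOQ and TTR were at 0 in all libraries. All 4 epithelial markers passed at low levels, and their sum was 125.7 to 143.6 in nutlin-3a shARVCF libraries and 319.8 to 617.0 in untreated ones, and 187.0 to 212.9 in nutlin-3a control libraries, against 674.2 in the untreated control library. KRT14 made up most of the untreated sums, while CDH1 was at 17.5 to 34.7 in nutlin-3a shARVCF libraries, against 8.82 to 15.3 in untreated ones. Of 6 blood markers 2 passed, CD34, lower under nutlin-3a in all shARVCF lines (54.15 to 84.0, against 300.8 to 634.4 untreated), and CD68, higher in each line (103.4 to 379.9, against 30.6 to 152.8 untreated). The part of these markers in the results was not tested. Transcript length separated the control nutlin-3a libraries from the others. Across genes, the level of each gene relative to its mean over all libraries had a Spearman correlation with spliced length of -0.518, -0.444 and -0.465 in the 3 control nutlin-3a libraries and of 0.253 to 0.352 in the other 7. Comparisons with those 3 libraries were therefore made both as deposited and with each library's trend on spliced length and GC removed.

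Levels among the 30 genes spanned a wide range. Per kb of spliced length and averaged over all 10 libraries, FDPS, the farnesyl diphosphate synthase, had 2136 scaled fragments per kb and FADS2, a desaturase of polyunsaturated fatty acids, had 2114. ACACA, the cytosolic acetyl-CoA carboxylase, had 6.31 per kb, below TM7SF2, a sterol reductase (61.1), and LSS, the lanosterol synthase (65.4). ACACA thus stood at the 7.41 percentile of the tested genes per kb, whereas FASN, the fatty acid synthase that uses its product, stood at the 93.8 percentile. ACACA is overlapped by 2 annotated genes on its own strand, and its libraries ranged from 5.15 to 147.9 scaled fragments.

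**Figure D1:**
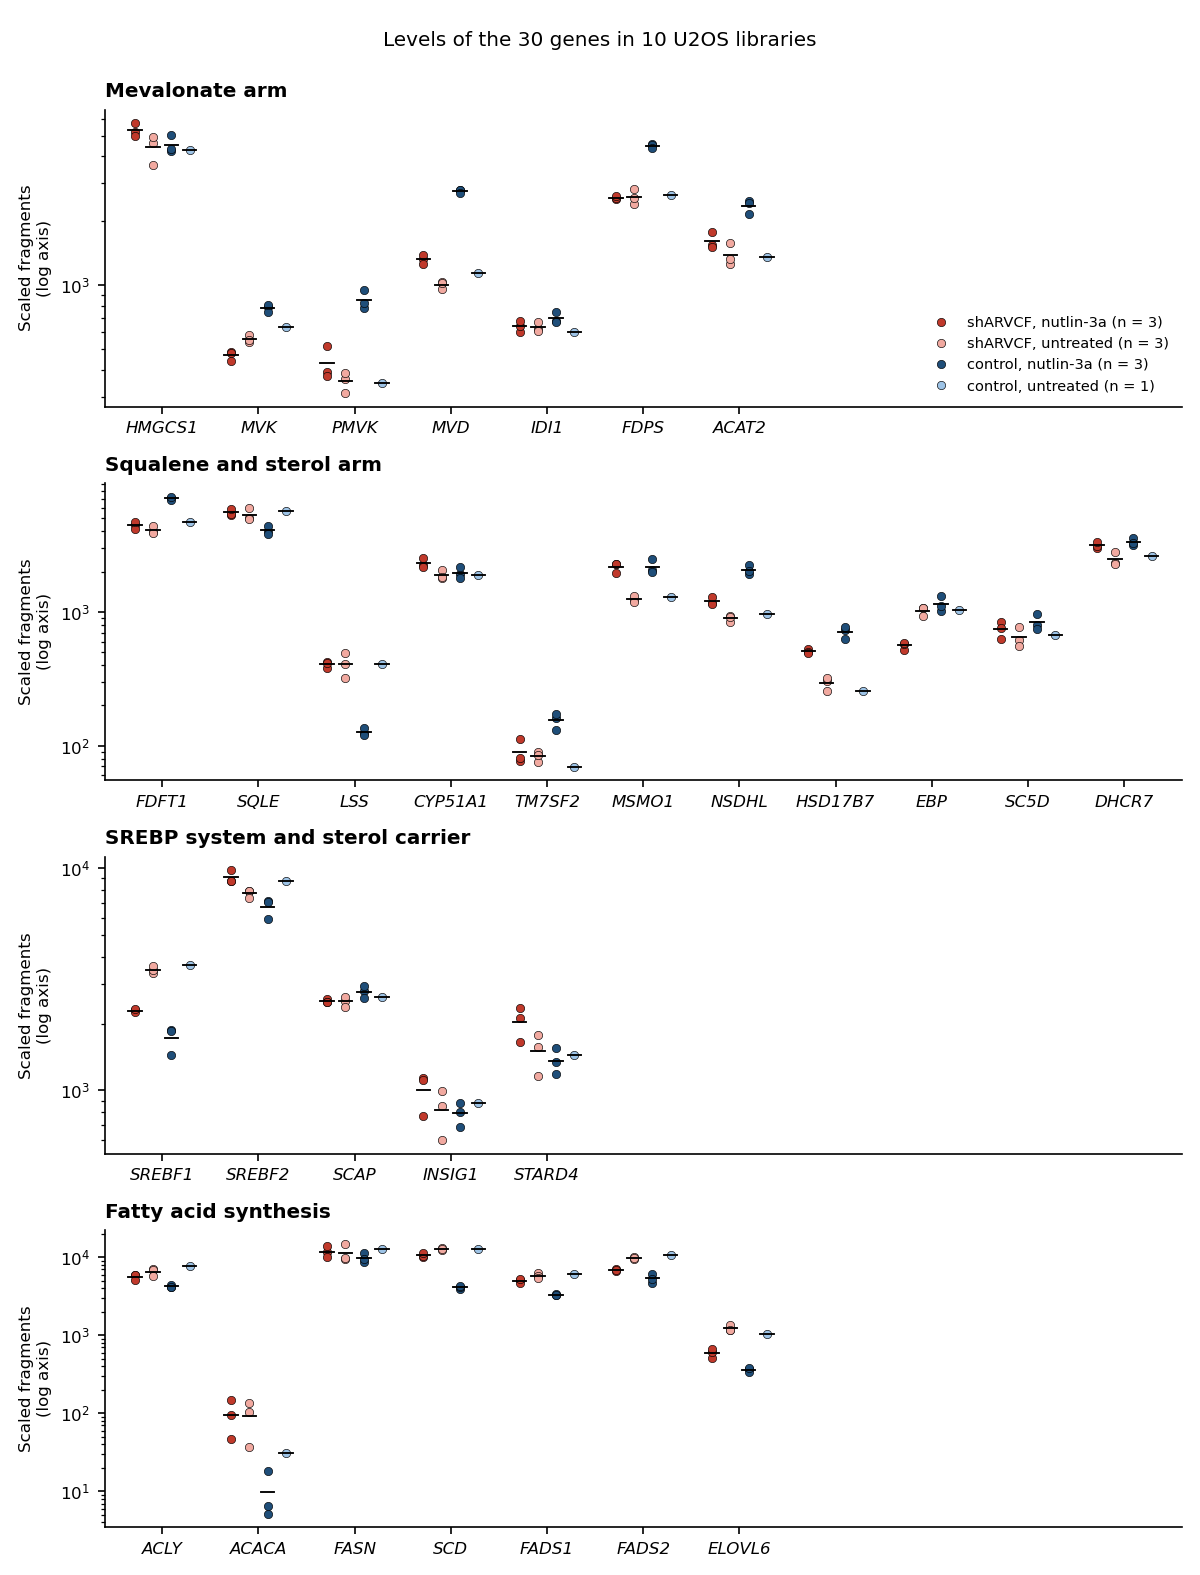
Scaled fragments (log axis) of the 30 genes in the 10 libraries, by role. Points are libraries and bars are group means, with shARVCF under nutlin-3a, shARVCF untreated, control under nutlin-3a (n = 3 each) and control untreated (n = 1). SCD lies at 3958 to 4349 in the nutlin-3a control libraries and at 10080 or more in every other library.

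The promoters of these genes were rich in 2 known boxes. RefSeq promoter windows, 250 bases before to 50 after each start on GRCh38.p14, were matched for 26 of the 30 genes. The letters CCAAT, the box bound by NF-Y, a usual partner of SREBPs, were found on either strand in 17 of 26 windows (65.4%), against 35.7% of all 27305 genes with a window and 35.8% of the 11065 tested genes. GGGCGG, the GC box, was in 24 of 26 (92.3%), against 44.6% of all genes and 67.7% of the tested genes. CACGTG, the E-box, was in 4 of 26 (15.4%), against 7.44% of all genes. TCACNCCAC, the core of the sterol regulatory element, was in 1 of 26, the window of SREBF2, against 1.15% of all genes. These are matches of letters, not measured binding.

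The stretches below are shown because MSMO1 and NSDHL were raised by nutlin-3a in both kinds of line, SCD had the smallest adjusted p among the genes whose effects differed between them, and SREBF2 holds the sterol element core. All are on the plus strand of GRCh38.p14 and lie before the first annotated base of the gene. Capitals mark TCACNCCAC, CCAAT and GGGCGG in either orientation (ATTGG and CCGCCC are the reverse strand), and CCAATTGG in NSDHL is CCAAT on both strands, overlapping.
MSMO1, chr4:165327419-165327622: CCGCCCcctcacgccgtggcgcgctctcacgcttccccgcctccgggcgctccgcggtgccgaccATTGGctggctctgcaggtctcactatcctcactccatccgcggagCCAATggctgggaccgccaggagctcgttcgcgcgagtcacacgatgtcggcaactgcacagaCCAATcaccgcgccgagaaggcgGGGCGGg
NSDHL, chrX:152830823-152830966: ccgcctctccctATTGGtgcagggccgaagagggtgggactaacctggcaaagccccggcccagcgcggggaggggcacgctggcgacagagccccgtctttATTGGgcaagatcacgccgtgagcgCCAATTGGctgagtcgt
SCD, chr10:100346992-100347063: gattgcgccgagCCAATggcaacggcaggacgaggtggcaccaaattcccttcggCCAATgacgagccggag
SREBF2, chr22:41832960-41833015: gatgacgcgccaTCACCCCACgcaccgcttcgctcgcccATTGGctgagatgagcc
The sterol genes MSMO1 and NSDHL carried 4 and 5 CCAAT boxes in their windows, and SCD carried 2. The NSDHL number counts CCAATTGG on both strands. MVD, HSD17B7 and DHCR7, also called higher in both kinds of line as deposited, carried 3, 2 and 2. MVK and EBP, lowered in the shARVCF lines, carried 5 and 3. SREBF1, FADS2 and ELOVL6, called lower in both kinds of line, carried 0. CYP51A1, called in the shARVCF lines only, and PMVK and FADS1, called in the control line only, also carried 0. FDPS, ACLY, LSS, TM7SF2 and SREBF2, called in the control line only, carried 3, 2, 1, 1 and 1.

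In the shARVCF lines nutlin-3a raised 6 and lowered 6 of the 30 genes. Of the rises 5 were among the 11 genes of the squalene and sterol arm and 1 was in the mevalonate arm. The falls were those of 3 of 7 fatty acid genes, SREBF1, and the cholesterol enzymes EBP and MVK. The background was high, with 42.8% of all tested genes called in this comparison (limma with Benjamini-Hochberg adjustment, adjusted p under 0.05), so that 12 of 30 is close to it. It was 21% for rises and 21.7% for falls. Treated and untreated libraries did not overlap for 50% of the 30 genes and 54.9% of all tested genes. The median log2 fold change was 0.09 over the 30 genes and 0.00 over all tested genes. In bulk RNA, fewer cells of a type and less RNA per cell cannot be told apart.

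Among sterol enzymes, MSMO1 (chromosome 4, 165327623 to 165343160, plus strand, 6 exons), the monooxygenase that starts the later removal of the paired sterol methyl groups, after CYP51A1 has acted, had 2278, 1949 and 2273 scaled fragments in nutlin-3a shARVCF libraries, against 1236, 1317 and 1185 in untreated ones. Every treated library was above every untreated one, and the rise was 1.74-fold (log2 0.80, SE 0.11, adjusted p = 7.27e-05). HSD17B7, the ketoreductase of the same demethylation steps, had 525.7, 499.1 and 495.7 in nutlin-3a libraries, against 305.6, 317.8 and 256.7 in untreated ones, without overlap (1.73-fold, adjusted p = 0.000189). NSDHL (chromosome X, 152830967 to 152869729, plus strand, 8 exons), the dehydrogenase between them, had 1155, 1136 and 1296 in nutlin-3a libraries, against 837.2, 930.5 and 910.8 in untreated ones (1.34-fold, adjusted p = 0.0036). These 3 enzymes act in turn on the methyl groups of lanosterol derivatives, and all 3 were higher under nutlin-3a in every shARVCF line. The other rises were those of MVD, the mevalonate diphosphate decarboxylase (log2 0.40), DHCR7, the reductase of the last step to cholesterol (0.35), and CYP51A1, the lanosterol demethylase (0.29).

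EBP (chromosome X, 48521158 to 48528716, plus strand, 5 exons), the sterol isomerase that acts after demethylation, was lower under nutlin-3a. It had 523.1, 573.5 and 588.1 scaled fragments in nutlin-3a shARVCF libraries, against 933.7, 1063 and 1069 in untreated ones. All treated libraries lay below all untreated ones, a 1.82-fold fall (log2 -0.86, SE 0.11, adjusted p = 5.7e-05). MVK, the mevalonate kinase, was the other enzyme of cholesterol synthesis that was lowered (log2 -0.26, adjusted p = 0.0415). Its call was lost without any one of the 6 shARVCF libraries, with adjusted p of 0.0684 to 0.133 (log2 -0.29 to -0.22). MVK is overlapped by MMAB on the opposite strand.

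The falls in fatty acid synthesis were led by ELOVL6 (chromosome 4, 110045846 to 110199199, minus strand, 5 exons), the elongase of saturated fatty acids. It had 514.9, 614.2 and 663.5 scaled fragments in nutlin-3a shARVCF libraries, against 1166, 1343 and 1167 in untreated ones. The treated libraries were all lower, by 2.06-fold (log2 -1.04, SE 0.11, adjusted p = 1.3e-05). SREBF1 (chromosome 17, 17810399 to 17837002, minus strand, 20 exons), the SREBP of fatty acid genes, had 2291, 2243 and 2317 in nutlin-3a libraries, against 3361, 3489 and 3646 in untreated ones, without overlap (1.53-fold lower, adjusted p = 0.000409). FADS2 fell by 0.49 and SCD, the stearoyl-CoA desaturase, fell by 0.28 on the log2 scale (adjusted p = 0.00204 and 0.0187). The SCD call was lost without shARVCF nutlin-3a line 1 (log2 -0.24, adjusted p = 0.0645), nutlin-3a line 2 (-0.26, 0.0657) or untreated line 2 (-0.27, 0.0583). No gene of fatty acid synthesis rose: of 7 genes, 3 fell and 4 were not called.

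Because the same 3 lines were sampled with and without drug, the comparison was also made within lines. With line as a block, 10 of the 30 genes rose and 8 fell, beside 3539 higher and 3618 lower of all 14955 tested genes (47.9% called). The added rises were those of HMGCS1, the HMG-CoA synthase (log2 0.28, adjusted p = 0.0293), SREBF2 (0.23, 0.0443), INSIG1, which retains SREBPs in the endoplasmic reticulum (0.31, 0.0268), and STARD4, a sterol carrier (0.45, 0.00465). The added falls were those of ACLY, which supplies cytosolic acetyl-CoA (-0.21, 0.0296), and FADS1, a second desaturase of polyunsaturated fatty acids (-0.21, 0.0492). Removing the length and GC trend instead gave 9 rises and 7 falls, beside 21.9% of all tested genes called higher and 22.8% called lower (44.6% in all). With upper-quartile scaling the split was 9 higher and 5 lower, beside 3503 higher and 2959 lower over all tested genes.

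In the control line nutlin-3a raised 10 and lowered 9 of the 30 genes, beside 25.1% of all tested genes called higher and 32% called lower (57.1% in all). All 10 rises were in the mevalonate arm (4 of 7) and the squalene and sterol arm (6 of 11), while 5 of 7 fatty acid genes, both SREBP genes, SQLE and LSS fell. The median log2 fold change was 0.08 over the 30 genes and -0.10 over all tested genes. There is 1 untreated control library, so its scatter is unknown and was taken from the other groups. That library lay outside the range of the treated ones for 80% of the 30 genes and 86% of all tested genes. In the first library series alone, with 1 control nutlin-3a library, 9 genes were higher and 8 lower, beside 3222 higher and 4137 lower of 14773 tested genes (49.8% called).

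The largest rise in the control line was that of HSD17B7, with 728.4, 628.4 and 770.5 scaled fragments in nutlin-3a libraries, against 255.8 in the untreated library (2.75-fold, adjusted p = 1.49e-05). MVD had 2800, 2793 and 2709 in nutlin-3a libraries, against 1135 in the untreated library (2.44-fold, adjusted p = 1.74e-06). PMVK, the phosphomevalonate kinase, had 948.6, 780.4 and 826.2 in nutlin-3a libraries, against 348.1 in the untreated library (2.43-fold, adjusted p = 0.000167). For these genes every treated library exceeded the untreated one. They are short, at 1190, 1823 and 1280 bases of spliced length, and the trend of these libraries favours short transcripts. With that trend removed HSD17B7 and MVD were still called (log2 0.94 and 0.31), and PMVK was not (0.26, adjusted p = 0.343).

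SCD (chromosome 10, 100347124 to 100364834, plus strand, 6 exons) had 3958, 4192 and 4349 scaled fragments in the nutlin-3a control libraries, against 12730 in the untreated control library. All 3 treated libraries lay far below it, a 3.06-fold fall (log2 -1.61, SE 0.12, adjusted p = 3.99e-07). LSS (chromosome 21, 46188141 to 46228824, minus strand, 22 exons) had 124.3, 136.5 and 119.1 in nutlin-3a libraries, against 405.7 in the untreated library (3.19-fold lower, adjusted p = 3.86e-05). ELOVL6 had 366.0, 342.5 and 382.0 in nutlin-3a libraries, against 1033 in the untreated library (2.84-fold lower, adjusted p = 8.06e-06). These 3 genes have long transcripts, of 5362, 4936 and 6454 bases, and all 3 falls were still called with the trend removed (log2 -1.13, -1.72 and -0.69). Removal left a link with length among the members. Over the 30 genes the control-line effect had a Spearman correlation with spliced length of -0.858 as deposited and -0.543 after removal. The 11 members of 4 kb or more had a median of -0.88 as deposited and -0.69 after removal. SREBF1 had 1868, 1843 and 1441 in nutlin-3a libraries, against 3675 in the untreated library (2.15-fold lower, adjusted p = 4.08e-05).

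With the length and GC trend removed, 11 of the 30 genes were higher and 10 lower in the nutlin-3a control libraries, beside 20.4% of all tested genes called higher and 28.1% called lower (48.5% in all), but not all of the same genes. PMVK, FDPS, TM7SF2 and DHCR7 were no longer called, with FDPS at log2 -0.04 and DHCR7 at -0.18 after removal. HMGCS1, IDI1, the isopentenyl diphosphate isomerase, CYP51A1, SC5D, a sterol desaturase, and STARD4 were called higher, and EBP lower (log2 -0.49, adjusted p = 0.0177). With upper-quartile scaling the split as deposited was 12 higher and 7 lower, beside 4651 higher and 4085 lower over all tested genes, which as deposited were 3752 higher and 4780 lower. The SREBF2 fall (log2 -0.40, adjusted p = 0.0252) was lost without control nutlin-3a replicate 3 (log2 -0.31, adjusted p = 0.0639) and with upper-quartile scaling (log2 -0.23, adjusted p = 0.176). It was also lost with median-of-ratios scaling (log2 -0.33, adjusted p = 0.0566) and with no filter (log2 -0.40, adjusted p = 0.0521). With library series as a term the SREBF2 call was lost too (log2 -0.31). The DHCR7 rise was lost without shARVCF nutlin-3a lines 1, 2 or 3, shARVCF untreated line 1, or control nutlin-3a replicates 2 or 3 (log2 0.31 to 0.36, adjusted p = 0.05 to 0.104). It was also lost with no filter (log2 0.35, adjusted p = 0.103) and with equal library totals (log2 0.23, adjusted p = 0.161). The same held without trend or robust weights (log2 0.35, adjusted p = 0.0806) and with library series as a term (log2 0.27).

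The 2 nutlin-3a comparisons share no library, and their calls are set side by side here. Both rest on the spread of a single fit over all libraries, so the calls are not independent. As deposited, MVD, MSMO1, NSDHL, HSD17B7 and DHCR7 were called higher in both kinds of line, and SREBF1, SCD, FADS2 and ELOVL6 were called lower in both. These are 16.7% and 13.3% of the 30 genes, against 13.1% and 15.6% of all tested genes. No member was called in opposite directions, against 2.47% of all tested genes. With the trend removed, 8 genes were higher in both (HMGCS1, MVD, CYP51A1, MSMO1, NSDHL, HSD17B7, SC5D and STARD4) and 6 were lower in both (EBP, SREBF1, SCD, FADS1, FADS2 and ELOVL6). These are 26.7% and 20% of the 30 genes, against 13.4% and 17.0% of the tested genes with a length.

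**Figure D2:**
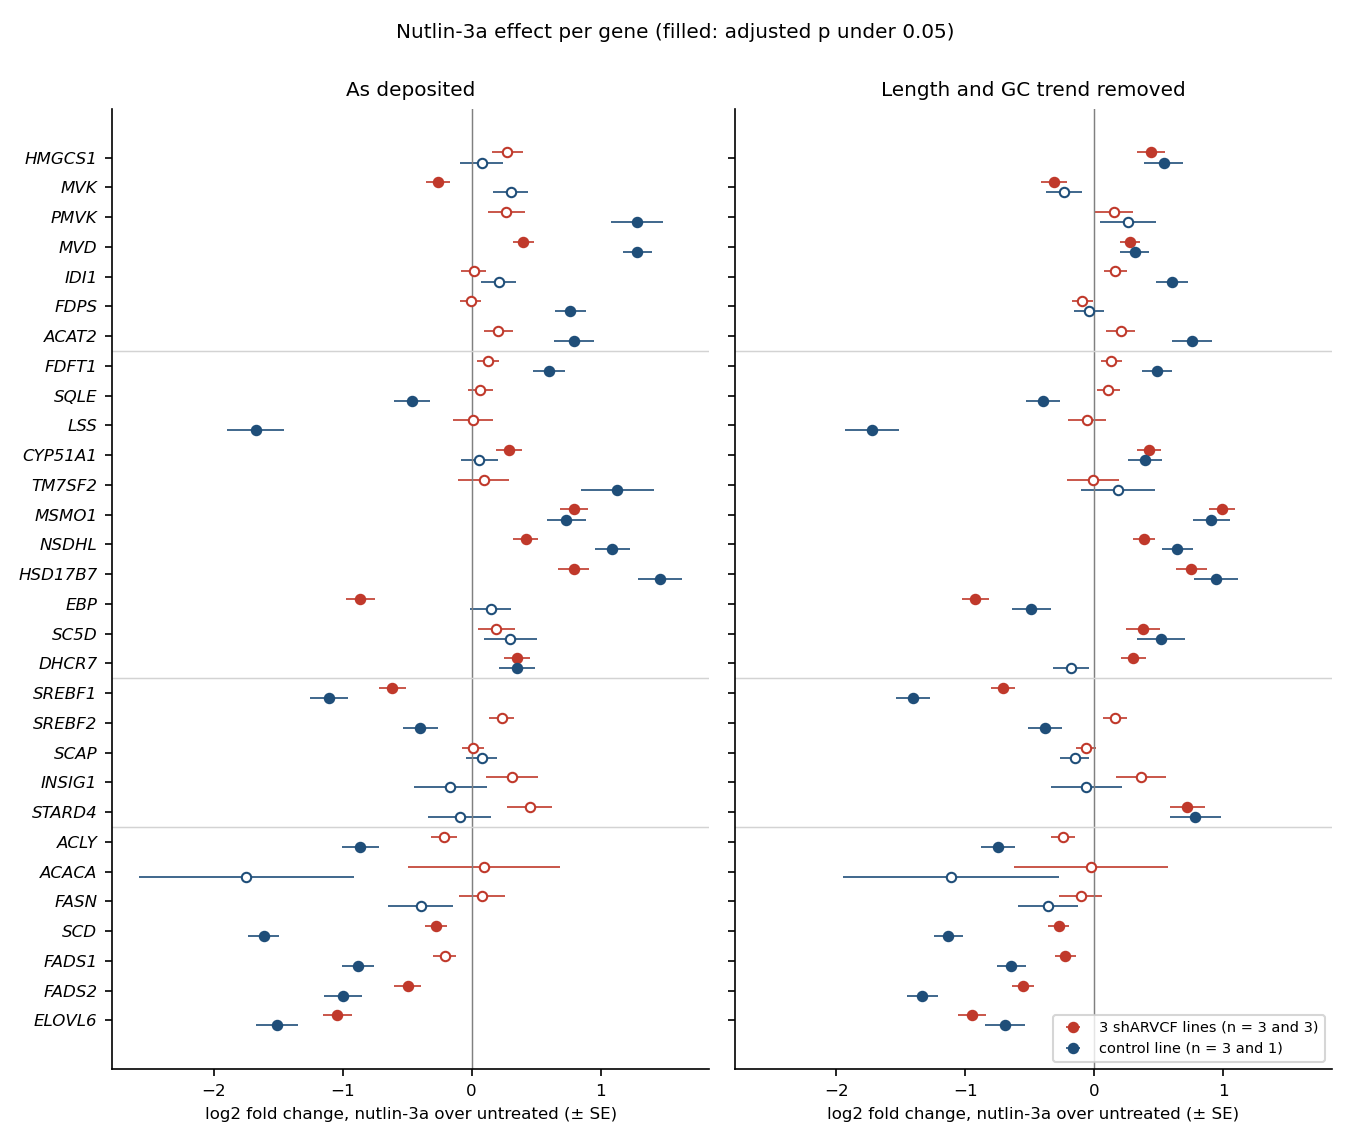
Log2 fold change of nutlin-3a over untreated for each gene (± SE), with the shARVCF lines above the control line in each row, as deposited and with the length and GC trend removed. Filled points have an adjusted p under 0.05. Sterol genes such as MSMO1 lie right of 0 in both kinds of line, fatty acid genes lie mostly left of 0, and the LSS fall appears in the control line, at log2 -1.67.

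Under nutlin-3a, the shARVCF lines had more RNA of 11 and less of 10 of the 30 genes than the control line, beside 32.3% of all tested genes called higher and 26.1% called lower (58.4% in all). The genes higher in shARVCF cells were 6 of the 7 fatty acid genes, SREBF1, SREBF2, STARD4, LSS and SQLE, the squalene epoxidase. The genes lower in shARVCF cells were 5 of 7 in the mevalonate arm and 5 of 11 in the sterol arm. The median log2 difference was 0.11 over the 30 genes and 0.06 over all tested genes. The shARVCF and control libraries did not overlap for 73.3% of the 30 genes and 64.1% of all tested genes.

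ACACA had 147.9, 46.7 and 95.0 scaled fragments in nutlin-3a shARVCF libraries, against 18.1, 5.15 and 6.47 in nutlin-3a control libraries (log2 3.20, SE 0.59, adjusted p = 0.000825). The groups did not overlap, but the levels were low and varied widely within each group, and the call was lost in the first library series alone (log2 2.21, adjusted p = 0.0597). SCD had 10080, 10340 and 11340 in shARVCF libraries, against 3958, 4192 and 4349 in control libraries (2.54-fold higher, adjusted p = 1.17e-07). LSS had 382.4, 419.0 and 414.0 in shARVCF libraries, against 124.3, 136.5 and 119.1 in control libraries (3.18-fold higher, adjusted p = 2.29e-06). For both SCD and LSS each shARVCF library was above each control library. With the trend removed both differences were still called, at log2 0.87 for SCD and 1.74 for LSS. Over the 30 genes the shARVCF-against-control difference under nutlin-3a had a Spearman correlation with spliced length of 0.852 as deposited. It was still 0.534 after removal.

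On the lower side, MVD had 1325, 1259 and 1381 scaled fragments in nutlin-3a shARVCF libraries, against 2800, 2793 and 2709 in control libraries (2.09-fold lower, adjusted p = 4.98e-07). PMVK had 393.5, 519.9 and 376.2 in shARVCF libraries, against 948.6, 780.4 and 826.2 in control libraries (1.99-fold lower, adjusted p = 7.37e-05). FDPS had 2537, 2556 and 2610 in shARVCF libraries, against 4572, 4539 and 4360 in control libraries (1.75-fold lower, adjusted p = 5.34e-06). None of these groups overlapped, yet none of the 3 differences was called with the trend removed (log2 -0.11, -0.06 and -0.08). EBP had 523.1, 573.5 and 588.1 in shARVCF libraries, against 1010, 1105 and 1316 in control libraries (2.03-fold lower, adjusted p = 9.45e-06). NSDHL had 1155, 1136 and 1296 in shARVCF libraries, against 2258, 1928 and 2028 in control libraries (1.73-fold lower, adjusted p = 1.89e-05). EBP and NSDHL were still lower with the trend removed, at log2 -0.44 and -0.40 (adjusted p = 0.00608 and 0.00337).

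With the trend removed, 10 genes were higher and 5 lower in shARVCF cells under nutlin-3a, beside 23.9% of all tested genes called higher and 14.4% called lower (38.3% in all). The 5 lower were IDI1, ACAT2, the cytosolic acetoacetyl-CoA thiolase, FDFT1, the squalene synthase, NSDHL and EBP. DHCR7 joined the higher genes (log2 0.45, adjusted p = 0.00369), while STARD4 and ELOVL6 left them, at log2 -0.13 and -0.05, and TM7SF2 was at 0.12. The STARD4 call as deposited was also lost without shARVCF nutlin-3a line 1 (log2 0.47, adjusted p = 0.0541) or control nutlin-3a replicate 2 (log2 0.48, adjusted p = 0.0589). SREBF1 was lost with library series as a term (log2 0.29, adjusted p = 0.103). In the first library series alone the count was 9 higher and 10 lower, beside 45% of tested genes called.

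Without drug, none of the 30 genes was called between shARVCF lines and the control line, beside 0.0201% of all tested genes. The adjusted p was 1 for each member in limma, and 0 of the 30 had an unadjusted p under 0.05, against 1.58% of all tested genes. Log2 differences ran from -0.24 for ACLY to 1.36 for ACACA, with a median of -0.06 over the 30 genes and -0.01 over all tested genes. SCD, for example, had 12530, 13000 and 12940 scaled fragments in untreated shARVCF libraries, against 12730 in the untreated control library, and LSS had 496.8, 407.9 and 322.0, against 405.7. The single control library lay inside the shARVCF range for both. It lay outside that range for 13 of the 30 genes, with the shARVCF libraries all higher for 5 and all lower for 8, and for 39.9% of all tested genes. With 1 control library the SE of these log2 differences was at least 0.11, and a p that misses the threshold does not show equal levels.

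The difference between the nutlin-3a effects was tested in the same model, as the effect in shARVCF lines minus that in the control line. It was positive and called for 6 genes (SQLE, LSS, SREBF2, ACLY, SCD and FADS1) and negative and called for 10, beside 19.3% of all tested genes called positive and 12.5% called negative (31.8% in all). Over all tested genes that split was 2893 positive and 1863 negative, and 2493 positive and 2541 negative with upper-quartile scaling. The median was 0.13 over the 30 genes and 0.07 over all tested genes. LSS had the largest called difference, log2 1.68 (SE 0.27, adjusted p = 0.000695): its nutlin-3a effect was 0.01 in shARVCF lines and -1.67 in the control line. SCD followed at 1.33 (SE 0.15, adjusted p = 6e-05), with effects of -0.28 in shARVCF lines and -1.61 in the control line. SREBF2 (chromosome 22, 41833079 to 41907308, plus strand, 20 exons) differed by 0.63 (SE 0.17, adjusted p = 0.0126). It averaged 9115 ± 583 scaled fragments in nutlin-3a shARVCF libraries and 7740 ± 321 in untreated ones, and 6709 ± 670 in nutlin-3a control libraries (SD, n = 3 each), against 8805 in the untreated control library.

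FADS1 had 5073, 4736 and 5293 scaled fragments in nutlin-3a shARVCF libraries and 6255, 5829 and 5388 in untreated ones, and 3287, 3396 and 3248 in nutlin-3a control libraries, against 6098 in the untreated control library. Nutlin-3a libraries lay below untreated ones in both kinds of line, though in the shARVCF lines this was not called (log2 -0.21, adjusted p = 0.0719), and the effects differed by log2 0.67 (SE 0.15, adjusted p = 0.0052). FADS1 and FADS2 overlap on opposite strands, and FADS2 also overlaps FEN1 on its own strand.

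The negative differences were those of MVK, PMVK, MVD, FDPS, ACAT2, FDFT1, TM7SF2, NSDHL, HSD17B7 and EBP, from log2 -1.04 to -0.47. TM7SF2 had 112.3, 76.7 and 81.2 scaled fragments in nutlin-3a shARVCF libraries and 75.6, 89.4 and 85.2 in untreated ones, and 160.9, 130.7 and 171.3 in nutlin-3a control libraries, against 69.5 in the untreated control library. Its shARVCF groups overlapped, and the difference was log2 -1.04 (SE 0.35, adjusted p = 0.0377); it overlaps VPS51 on its own strand. All 7 members under 2 kb of spliced length had a called negative difference (median log2 -0.89), and none of the 11 members of 4 kb or more did (median 0.63). The shares called among all tested genes of the same lengths were not computed. Whether counts by length class are particular to these genes was therefore not tested. Across the 30 genes the difference had a Spearman correlation of 0.847 with spliced length, and of 0.580 across 14728 tested genes with a length. These points share the same libraries, and the coefficient is a description.

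With the length and GC trend removed, 5 of the 30 genes differed, all positive, beside 8.04% of all tested genes called positive and 4.57% called negative (12.6% in all). They were LSS (log2 1.67, SE 0.26, adjusted p = 0.00191), SCD (0.86, SE 0.14, adjusted p = 0.00241), FADS2 (0.78, SE 0.15, adjusted p = 0.00508), SREBF1 (0.70, SE 0.16, adjusted p = 0.0138) and SREBF2 (0.55, SE 0.16, adjusted p = 0.0433). None of the 10 negative differences was called any more, and the 7 short genes had a median of -0.19. The 11 members of 4 kb or more had a median of 0.51 and held 4 of the 5 calls. The other, FADS2, has 3630 bases of spliced length. The Spearman correlation with length over the 30 genes was still 0.541. As deposited FADS2 and SREBF1 had narrowly missed the threshold (log2 0.50 and 0.49, adjusted p = 0.05 and 0.0528), and with line as a block both were called, at 0.0369 and 0.043. With library totals made equal, the split as deposited was 9 positive and 6 negative, beside 3380 positive and 1462 negative over all tested genes. In the first library series alone it was 6 positive and 7 negative, beside 26.7% of tested genes called, and the 10 negative calls also came to 6 without shARVCF nutlin-3a line 2, shARVCF untreated line 2 or control nutlin-3a replicate 3.

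**Figure D3:**
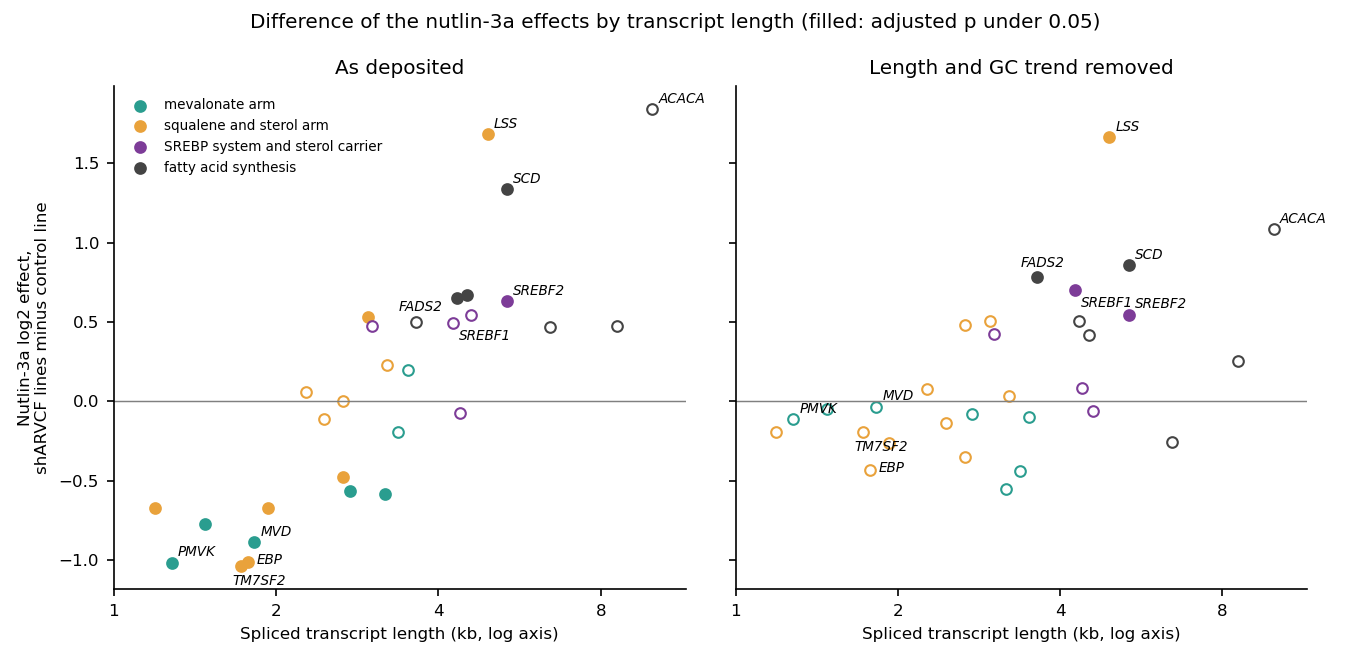
Nutlin-3a log2 effect in the shARVCF lines minus that in the control line, against spliced length (kb, log axis), as deposited and with the length and GC trend removed. Filled points have an adjusted p under 0.05 and colours mark roles. As deposited the points climb with length, from PMVK at -1.01 to SCD at 1.33, and after removal 5 genes are called, with LSS at 1.67.

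The lines were also set side by side without a test, since each has 1 library per treatment. The SCD effect was log2 -0.31, -0.33 and -0.19 in lines 1, 2 and 3, against -1.69, -1.60 and -1.55 in the 3 control libraries, each set against the same untreated control library. The LSS effect was -0.38, 0.04 and 0.36 in the lines, against -1.70, -1.56 and -1.76. The lines thus disagreed in sign for LSS, but each lay above each control value. The median effect over the 30 genes was 0.15, -0.07 and 0.26 in the lines, against 0.06, 0.06 and 0.22 in the control libraries.

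**Figure D4:**
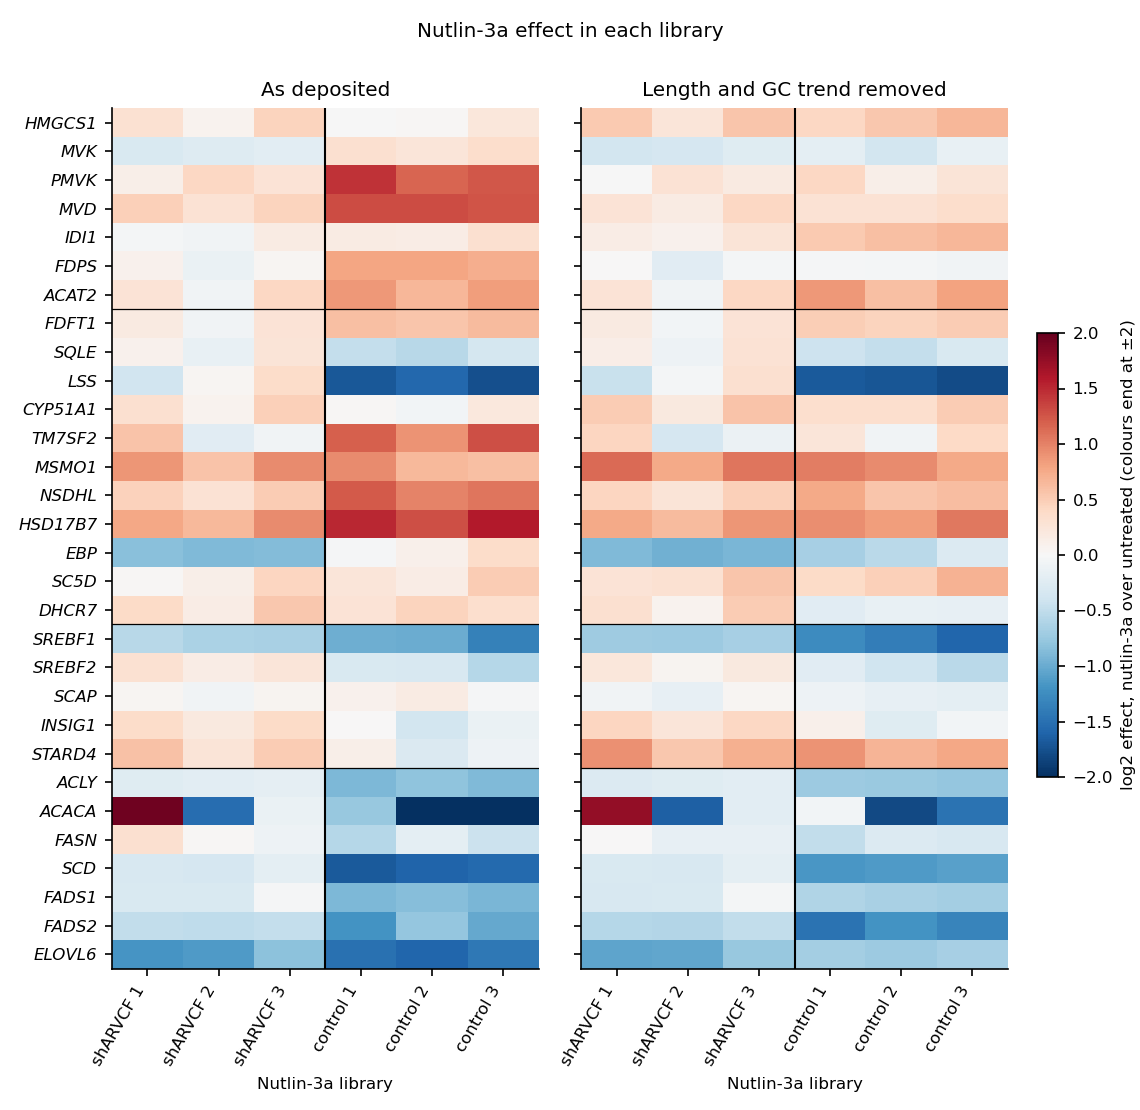
Log2 nutlin-3a effect of each gene in the 3 shARVCF lines and then the 3 control libraries, as deposited and with the length and GC trend removed. Each shARVCF line is set against its own untreated library and each control library against the 1 untreated control library. Red is higher and blue lower under nutlin-3a, with MSMO1, NSDHL and HSD17B7 red and SREBF1, SCD and ELOVL6 blue in all 6 columns.

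Further genes of the same pathways were examined as a list of 53, of which 52 passed the filter. In shARVCF lines nutlin-3a raised 13 and lowered 10 of them, beside 21% and 21.7% of all tested genes. In the control line it raised 14 and lowered 16, beside 25.1% and 32%, and with the trend removed 8 were higher and 14 lower, beside 20.4% and 28.1%. These shares are near those of the 52 genes. HACD3, a dehydratase of fatty acid elongation, fell in both kinds of line, to 2026, 2090 and 2246 scaled fragments in nutlin-3a shARVCF libraries, against 4668, 4206 and 4668 in untreated ones (2.13-fold lower, adjusted p = 7.62e-07). In the control line it fell to 1763, 1710 and 1924, against 4644 in the untreated library (2.58-fold lower, adjusted p = 1.9e-06). COQ2, which attaches the isoprenoid tail of ubiquinone, fell by 1.65 in shARVCF lines and by 1.5 in the control line on the log2 scale. ACSS2, which makes acetyl-CoA from acetate, rose in both (log2 0.73 in shARVCF lines and 1.01 in the control line). TECR, from the genes of fatty acid supply, elongation and activation, fell 1.68-fold in shARVCF lines (adjusted p = 0.000143). In the control line TECR was not called as deposited (log2 -0.04) and was called lower with the trend removed (-1.12). With the trend removed the control-line effects of HACD3, COQ2 and ACSS2 were still called, at log2 -1.06, -1.94 and 0.74.

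ABCA1, the cholesterol exporter of the plasma membrane, had 424.5, 323.8 and 395.2 scaled fragments in nutlin-3a shARVCF libraries, against 196.6, 114.7 and 164.0 in untreated ones (2.44-fold higher, adjusted p = 0.000266). Its nutlin-3a control libraries were at 102.3, 79.8 and 88.1, against 135.2 in the untreated control library. The effects on ABCA1 differed by log2 1.88 (SE 0.35, adjusted p = 0.00193), and by 1.01 with the trend removed, which was not called (adjusted p = 0.0914). NPC1, which carries cholesterol out of lysosomes, rose 2.12-fold in shARVCF lines (adjusted p = 0.000269). LPIN1, a phosphatidate phosphatase, had effects that differed by log2 1.10 (adjusted p = 0.00035), and by 0.59 with the trend removed (adjusted p = 0.024). Of the 52, the effects differed positively for 10 and negatively for 6 as deposited, which is close to the 19.3% and 12.5% of all tested genes, and for 3 and 1 with the trend removed, beside 8.04% and 4.57%.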

How the data were processed

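Poly(A) RNA of 10 U2OS libraries was sequenced after stranded preparation, per the labels' protocols. Per the submitters' processing notes the tools included bcl2fastq 1.8.3, HISAT2 2.1.0 and Cuffnorm 2.2.1, with build hg38; the annotation and the strand setting of counting could not be read from the labels and are not given in the sources used here. Values were deposited as a signal per gene: the authors' estimate of fragments, scaled by a factor for each library. Between 48.7% and 55.1% of each library's positive values came out whole (tolerance 0.01) when divided by the low value it holds most often, so whole reads were not recovered and no count test was run. Estimated unscaled totals ran from 15073578 to 21096205, which limits the precision of low genes.

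Groups came from the labels. Genes were tested if 3 or more libraries reached a value of 10. A single linear model with 4 group means (6 residual degrees of freedom) was fitted to log2(value + 1) of all 10 libraries in limma 3.58.1 (R 4.3.3), with trended, robust variance moderation; tests were two-sided with Benjamini-Hochberg adjustment over all genes tested, called under 0.05. Fold changes are on this pseudocount scale. Positions, exons and lengths are from GENCODE 29 (GRCh38), for the longest basic transcript, which need not be the mRNA measured: 24016 symbols matched directly, 707 through older symbols, and 1317 had no match. Length and GC trends were removed per library with splines (4 degrees of freedom, 14728 genes). The fit was tested on simulated data.

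Same-numbered shARVCF libraries are the same line. Their residuals correlated at 0.275, 0.288 and 0.327 across genes, against -0.204 to -0.0862 for other pairs, so the block on line was also fitted. Members, lists and tests were chosen with earlier results of these data known. All 30 members could be named. Libraries' values are printed for called members with the largest differences between kinds of line (at most 8 per comparison) and for the 3 highest and 3 lowest called members per comparison, beside up to 6 other pathway genes per comparison by smallest adjusted p. Alternatives were other pseudocounts, filters, scalings, the length and GC correction, library series, each library left out, the block, variance moderation without trend or robust weights, and promoter windows of the 250 bases before the start alone.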

Additional observations from a re-analysis of the deposited data

Results flagged for a closer look

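The nutlin-3a effect differed between the shARVCF lines and the control line, by the test of the difference itself, for 16 of the 30 genes as deposited, beside 31.8% of all tested genes. With length and GC trends removed 13 of the 16 were no longer called and 2 more were, 5 in all, beside 12.6% of all tested genes. The values are log2, shARVCF minus control. Positive differences were those of LSS (1.68), SCD (1.33), FADS1 (0.67), ACLY (0.65), SREBF2 (0.63) and SQLE (0.53). Negative differences were those of TM7SF2 (-1.04), PMVK (-1.01), EBP (-1.01), MVD (-0.89), FDPS (-0.77), NSDHL (-0.67), HSD17B7 (-0.67), ACAT2 (-0.58), MVK (-0.56) and FDFT1 (-0.47). After the trend was removed, FADS2 (0.78) and SREBF1 (0.70) also differed, while LSS, SCD and SREBF2 did so in both fits. The part of transcript length in the other differences was not tested beyond that correction. Groups of 3 or 1 libraries are too small for a check of single outlying libraries.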

How the results depend on the processing

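The 68 member calls made as deposited kept their direction under every alternative run on them, except 5 that changed sign with length and GC trends removed: FDPS (log2 -0.041) and DHCR7 (-0.18) in the control line, and TM7SF2 (0.12), STARD4 (-0.13) and ELOVL6 (-0.049) between kinds of line under nutlin-3a. Direction is not the call: with those trends removed 43 of the 68 were still called, and 20 kept their sign but missed the threshold. With no filter 58 of the 68 were still called. Of the calls made only with the trends removed, EBP and STARD4 in the control line and DHCR7 under nutlin-3a had the opposite sign as deposited (log2 0.15, -0.09 and -0.09). The other pathway genes were refitted only with the trends removed. That correction also brought the negative differences of effects to 0 and the genes lower in shARVCF cells under nutlin-3a to 5. It moved the member median to -0.11 in the control line and to -0.032 under nutlin-3a. Scaling moved the same medians: with upper-quartile scaling to 0.25 in the control line and -0.0008221 under nutlin-3a, with equal library totals to -0.03977 and 0.23, and with median-of-ratios scaling to 0.052 under nutlin-3a. The median of all tested genes in the control line moved with them, at -0.10 as deposited, 0.0707 with upper-quartile scaling and -0.215 with equal totals; under nutlin-3a it was 0.0563, -0.0569 and 0.17, and for the difference 0.0664, -0.0553 and 0.164. Negative differences of effects came to 6 with no filter and to 6 with equal totals. Over all tested genes, 1175 of 26040 were called negative with no filter (13.2% called in either direction). With equal totals 1462 of 14944 were (32.4%), and as deposited 1863 of 14955 (31.8%). With the replicate block on line, 10 members rose in the shARVCF lines; beside the changes given in the text it added calls for FASN in the control line (adjusted p = 0.0412) and STARD4 in the difference (0.0385), and changed no other member call. The cause was not tested.

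Leaving out each library gave 6 to 10 negative and 5 to 7 positive differences, beside 27.9% to 32.5% of all tested genes called in either direction. Member medians were 0.0624 to 0.15 under nutlin-3a, 0.0583 to 0.17 in the shARVCF lines and 0.0225 to 0.11 in the control line. For the difference the member median was 0.0474 to 0.19. Among differences, calls were lost without shARVCF nutlin-3a line 2 for ACAT2 (adjusted p = 0.0672), FDFT1 (0.0707), HSD17B7 (0.0538) and TM7SF2 (0.0789), and without shARVCF untreated line 2 for the same 4 (0.0635, 0.0676, 0.0585 and 0.0739). Without control nutlin-3a replicate 3 the 4 were lost too (0.0616, 0.0558, 0.0556 and 0.0716), and without control nutlin-3a replicate 1 ACAT2 (0.0537) and TM7SF2 (0.0625). ACAT2 was also lost without shARVCF nutlin-3a line 1 (0.0591), HSD17B7 without untreated line 1 (0.0502), and TM7SF2 without nutlin-3a line 3 (0.0627) or untreated line 3 (0.0624). SQLE was lost without nutlin-3a line 3 (0.0565), untreated lines 1 or 3 (0.0646 and 0.0645) or control nutlin-3a replicate 2 (0.0649). The SQLE difference was also lost with upper-quartile scaling (0.0772), with no filter (0.0869) and without trend or robust weights (0.0653). With library series as a term the differences of SQLE, FDFT1 and TM7SF2 were lost (log2 0.55, -0.48 and -1.11). In the shARVCF lines CYP51A1 was lost without nutlin-3a lines 1 or 3 (0.0582 and 0.137) or untreated lines 1 or 3 (0.119 and 0.101), and DHCR7 without untreated line 1 (0.0536). Without the untreated control library the control effect, the untreated comparison and the difference could not be fitted. Low levels of ACACA, TM7SF2 and LSS limit their precision.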
